A study of Homo sapiens with 8 samples.

Results

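The response to low oxygen was described across all genes in the MDA-MB-231 libraries labelled shCHD4, as the difference between 24 hours at 1% O2 and 24 hours at 20% O2. The comparison rests on 4 of the 8 libraries of the study, 2 at each O2 level, chosen by their labels alone. MDA-MB-231, an established human line from breast cancer, is known to lack hormone receptors. In these 4 libraries the labels give a short hairpin RNA against CHD4, the ATPase of the nucleosome-remodelling NuRD complex. The other 4 libraries, 2 at 1% and 2 at 20% O2, carry a scrambled hairpin (shSC) and serve here for the spread between replicates and for the test of where the response differs. The design bears on CHD4 and the hypoxia-inducible factors (HIFs). All cells grew as plated cultures of 1 line in medium with serum, and the sources used here do not give the hairpin sequence, the vector or whether a label stands for 1 clone. Whether both libraries of a group stem from separate cultures is not stated, so each p-value reflects only the spread among these libraries, possibly a technical one.

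The RNA of CHD4 did not go with the label, so the cells are called "libraries labelled shCHD4" throughout. CHD4 stood at 293.4 and 304.6 normalised read counts at 20% O2 and at 299.1 and 286.9 at 1% O2 in these libraries, and at 298.9, 298.2, 279.7 and 278.2 in the 4 shSC libraries. A normalised read count is a gene's reads divided by 1 factor per library, with no correction for gene length, so levels are compared between libraries and not between genes. The libraries labelled shCHD4 held 26152919 to 28784704 gene-assigned reads. Markers of the cell line were detected, with 9 of 9 present and a summed level of 10974 to 10994 at 20% O2 and 12773 to 12784 at 1% O2. VIM, given below, made up a large part of this sum. Markers of other cells had smaller sums, but a sum also depends on gene length and on which genes it holds, so panels are not ranked. Luminal breast markers summed to 26.6 to 27.8 at 20% and 22.4 to 26.1 at 1% O2, fibroblast markers to 33.2 to 36.1 and 37.2 to 37.6, endothelial markers to 6.32 to 7.07 and 7.32 to 7.99, and blood cell markers to 1.31 to 1.62 and 1.86 to 1.87. The shSC libraries differed: at 20% O2 their sums were 49.4 to 52.3 (luminal), 22.1 to 24.1 (fibroblast), 15.6 to 16.6 (endothelial) and 1.82 to 1.99 (blood cell). Their cell line markers summed to 9183 to 9206. Why the labels differ here was not tested. Of the defining genes, PGR and DCN had 0 reads in the libraries labelled shCHD4, CDH5 had 0 at 1% and 1 at 20% O2, and ESR1 had 4 and 5. Other defining genes were detected: LUM with 64 reads at 1% and 72 at 20% O2, PTPRC with 34 and 22, and PDGFRA with 7 and 4. PECAM1 and GATA3 passed the filter on low values. GATA3 stood at 10.7 and 10.0 at 20% O2 and at 8.79 and 8.38 at 1% O2, a fall (log2 change -0.25, adjusted p = 0.0407) that did not pass with any 1 of these 4 libraries left out (adjusted p from 0.0699 to 0.237). The part of other cell types in the results was not tested. In bulk RNA, fewer cells that carry a transcript and less of it per cell cannot be told apart.

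HIFs are pairs of an oxygen-regulated alpha subunit and the constant subunit ARNT. In oxygen, prolyl hydroxylases mark the alpha subunit for the VHL ubiquitin ligase and for degradation, and at low oxygen it persists, enters the nucleus and binds DNA at a short core with the letters ACGTG or GCGTG. Known HIF target genes move glucose into glycolysis, keep pyruvate out of mitochondria, export acid, prompt vessel growth, stiffen collagen and remove mitochondria. In breast cancer this program is best known for its ties to invasion and metastasis.

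Promoters of some of the strongest responders are shown so that the HIF core can be looked for in them. They are the RefSeq sequences (GRCh38.p14, another build than the hg19 of the deposited table) from 250 bases before to 50 after the annotated start. Shown are the 4 largest rises with a promoter entry and HIF1A, the largest fall. NDRG1, a larger rise than 3 of them, had no such entry. Capitals mark ACGTG and GCGTG on either strand, so that CACGT and CACGC are their reverse complements.
PPFIA4, chr1:203026241-203026540, + strand: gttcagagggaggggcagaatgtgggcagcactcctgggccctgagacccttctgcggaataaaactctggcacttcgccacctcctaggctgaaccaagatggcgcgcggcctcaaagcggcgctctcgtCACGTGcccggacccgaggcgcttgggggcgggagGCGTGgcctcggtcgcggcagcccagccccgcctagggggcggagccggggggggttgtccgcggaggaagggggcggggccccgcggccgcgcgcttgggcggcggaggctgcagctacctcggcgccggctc
CA9, chr9:35673678-35673977, + strand: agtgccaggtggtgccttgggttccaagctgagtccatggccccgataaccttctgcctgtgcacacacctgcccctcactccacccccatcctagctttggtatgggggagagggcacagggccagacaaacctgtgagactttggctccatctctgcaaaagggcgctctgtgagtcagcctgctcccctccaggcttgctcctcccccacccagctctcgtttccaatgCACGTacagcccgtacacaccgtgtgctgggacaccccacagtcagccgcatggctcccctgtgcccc
DDIT4, chr10:72273674-72273973, + strand: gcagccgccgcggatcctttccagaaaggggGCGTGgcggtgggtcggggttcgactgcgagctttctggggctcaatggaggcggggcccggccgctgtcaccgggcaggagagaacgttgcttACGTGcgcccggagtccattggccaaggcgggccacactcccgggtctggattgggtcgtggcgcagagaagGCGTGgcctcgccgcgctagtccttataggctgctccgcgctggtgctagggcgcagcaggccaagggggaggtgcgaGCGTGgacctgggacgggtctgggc
FAM115C, now TCAF2, chr7:143620724-143621023, + strand: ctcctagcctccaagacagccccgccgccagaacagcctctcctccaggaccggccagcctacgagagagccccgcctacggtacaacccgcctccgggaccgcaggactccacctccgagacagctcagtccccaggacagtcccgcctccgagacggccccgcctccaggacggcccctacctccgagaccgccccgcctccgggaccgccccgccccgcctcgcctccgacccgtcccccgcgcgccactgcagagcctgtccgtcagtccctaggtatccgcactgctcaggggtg
HIF1A, chr14:61695263-61695562, + strand: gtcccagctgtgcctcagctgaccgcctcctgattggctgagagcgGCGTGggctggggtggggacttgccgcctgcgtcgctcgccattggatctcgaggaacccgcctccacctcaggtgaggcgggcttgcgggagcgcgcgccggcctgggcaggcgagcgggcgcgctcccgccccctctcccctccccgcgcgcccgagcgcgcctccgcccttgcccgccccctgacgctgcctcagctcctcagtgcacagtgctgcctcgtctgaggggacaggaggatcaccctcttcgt
PPFIA4 held ACGTG on both strands of 1 palindrome and GCGTG once. CA9 held 1 ACGTG, on the minus strand, and DDIT4 held 1 ACGTG and 3 GCGTG. HIF1A held 1 GCGTG, and the FAM115C window held neither. Of the 63 genes that rose 2-fold or more, 47 had a promoter entry, and 22 of these, 46.8%, held ACGTG on either strand. The share was 27.3% of 10060 promoters of tested genes, 30% of 1233 promoters of all genes that rose, 28.4% of 1132 promoters of genes that fell and 21.6% of all 27305 promoters. For GCGTG the shares were 48.9% of the 2-fold rises, 51.5% of tested genes, 46.5% of all genes that rose and 58.5% of genes that fell. At least 1 of both cores was held by 72.3% of the 2-fold rises, 63.9% of tested genes, 61.3% of all genes that rose and 70% of genes that fell. A match is a string of letters and not a bound site.

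At 1% O2 the HIF target genes rose together, while most listed genes of DNA replication and ribosome building fell, by smaller amounts. In all, 1552 genes rose (12.3% of the 12645 tested) and 1351 fell (10.7%), together 23%, by limma at a false discovery rate of 0.05. These shares are the background for every list count given below. Rises reached further than falls: 63 genes, 0.498%, rose 2-fold or more, and 1 gene, HIF1A (0.00791%), fell by as much. The median log2 change over all tested genes was -0.0037, and 36.4% of genes had an unadjusted p under 0.05. The pair of libraries at 1% O2 lay wholly above the pair at 20% for 32.2% of genes and wholly below for 33.5%, which is the background for any single gene whose groups do not overlap. Leaving out a library labelled shCHD4 leaves 1 in its group, so calls are also lost because the test has less data. A call that ends in this way, here and below, does not show that it rested on that library. Rises numbered 814 without 1% O2 replicate 1, 844 without 1% O2 replicate 2 and 812 without 20% O2 replicate 1, and falls numbered 512, 607 and 532, and 821 without 20% O2 replicate 2. The count of 2-fold rises was 63 to 69 with any 1 library left out.

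Of the 63 strong rises, 40 belong to any of the gene lists and 32 of these to a general list of 50 HIF targets. All 50 members were tested and 47 rose, with a median log2 change of 1.2 on the scale of log2(normalised read count + 0.5). RASSF7 (0.05), JMJD6 (-0.01) and TFRC (-0.10) did not pass, and 44 to 47 members rose with any 1 library left out. The list was assembled with hypoxia results of these cells known and is no independent evidence of its direction. The gene lists share members, such as VLDLR in both the stress response and the lipid droplet list. Counts of different lists are therefore not separate results.

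**Figure D1:**
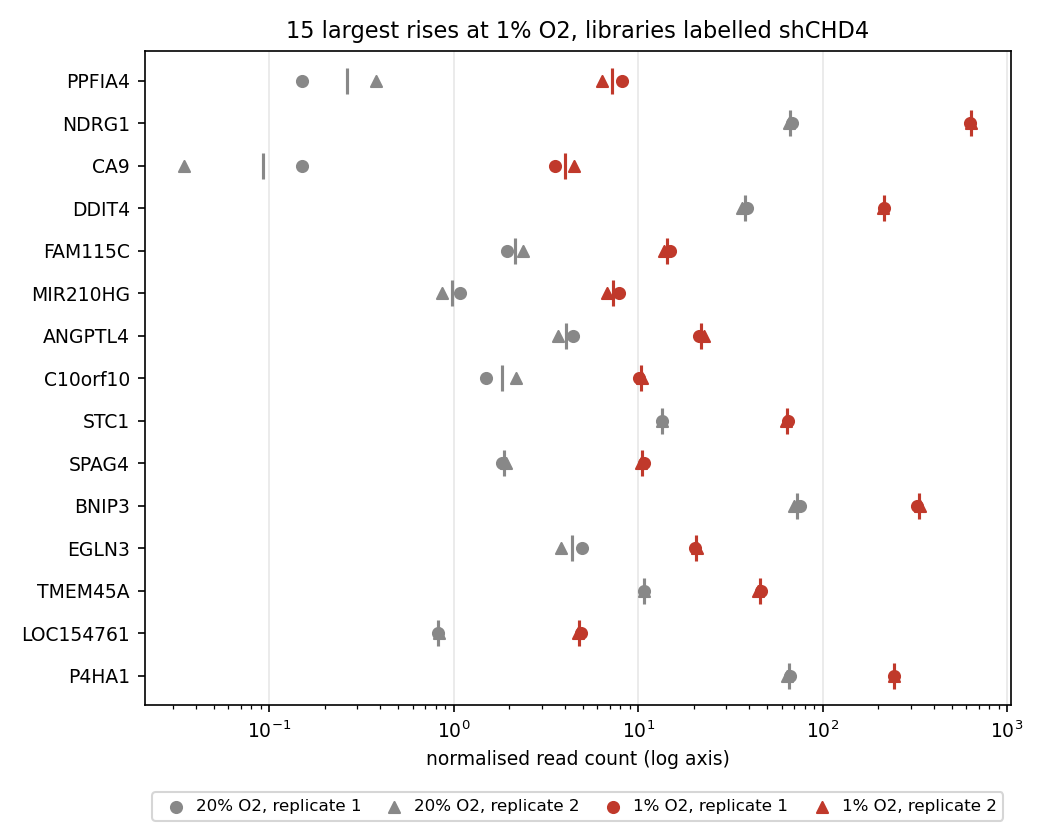
Normalised read counts (log axis) of the 15 largest rises at 1% O2 in the libraries labelled shCHD4, each point a library and each bar the mean of 2. For all 15 genes both 1% O2 libraries (red) lie above both 20% O2 libraries (grey), with the widest gaps for PPFIA4, NDRG1 and CA9.

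PPFIA4, a scaffold protein of the liprin family, stood at 0.150 and 0.379 at 20% O2 and at 8.17 and 6.33 at 1% O2. Its log2 change was 3.35 (SE 0.181, adjusted p = 1.24e-10), and the 20% O2 values rested on 15 reads. NDRG1, a stress-responsive gene linked to differentiation and metastasis, went from 68.3 and 65.6 to 631.2 and 640.4, a log2 change of 3.24 (SE 0.0415, adjusted p = 5.25e-20). The 4 values of each gene form separate pairs with no overlap, and NDRG1 had the smallest p of all genes in this comparison. CA9, the membrane carbonic anhydrase that acidifies the cell surroundings, stood at 0.150 and 0.0345 at 20% O2 and at 3.54 and 4.49 at 1% O2. Its log2 change of 2.93 (adjusted p = 4.02e-10) understates the ratio, because 5 reads lay behind the 20% O2 values and the added 0.5 exceeds them. With edgeR on the recovered reads the CA9 change was 5.42.

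DDIT4, an inhibitor of the growth kinase mTORC1, went from 39.0 and 36.6 to 216.3 and 212.9 (log2 change 2.49, SE 0.0487, adjusted p = 4.85e-17). ANGPTL4, a secreted inhibitor of lipoprotein lipase, went from 4.42 and 3.69 to 21.3 and 22.7 (2.31). STC1, a secreted glycoprotein named for its role in calcium balance in fish, went from 13.4 and 13.5 to 64.6 and 63.6 (2.21). In each case the lower of the 1% O2 values was several times the higher of the 20% values. BNIP3, a mitochondrial receptor that starts mitophagy, went from 75.6 and 69.7 to 325.8 and 337.6 (2.18). TMEM45A, a transmembrane protein, went from 10.7 and 10.8 to 46.6 and 44.9 (2.04). P4HA1, the catalytic subunit of collagen prolyl hydroxylase, went from 66.3 and 64.3 to 243.9 and 242.3 (1.89). These 3 genes again had replicate pairs that lay close together and far apart from the other O2 level.

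MIR210HG, the host transcript of the hypoxia microRNA miR-210, went from 1.09 and 0.862 to 7.83 and 6.75 (log2 change 2.4). SPAG4, a nuclear envelope protein, went from 1.83 and 1.93 to 10.7 and 10.3 (2.21). C10orf10, now named DEPP1, went from 1.5 and 2.2 to 10.1 and 10.5 (2.23). All 3 had few reads at 20% O2, 54 for MIR210HG, 105 for SPAG4 and 103 for C10orf10 over both libraries. FAM115C went from 1.95 and 2.38 to 14.8 and 13.8 (2.48), and LOC154761 from 0.823 and 0.828 to 4.88 and 4.74 (2.0). LOC154761 is known as a pseudogene of the same family, so reads may be shared between the 2 names and their rises are not separate results.

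Among the HIF genes themselves, both tested alpha subunits fell. A further alpha subunit gene, HIF3A, had 0 reads in the libraries labelled shCHD4 and was not tested. HIF1A stood at 350.5 and 368.9 at 20% O2 and at 116.9 and 127.5 at 1% O2, 2.94-fold lower (log2 change -1.55, SE 0.0569, adjusted p = 5.15e-13). EPAS1, which encodes HIF-2 alpha, went from 103.8 and 107.1 to 73.0 and 71.3 (-0.54, adjusted p = 3.39e-07). Neither gene's groups overlapped, and the other 2 tested subunit genes, ARNT (0.01) and ARNT2 (0.06), did not pass. HIF1A-AS2, an antisense RNA from the 3′ end of the HIF1A locus, went from 1.2 and 1.86 to 6.97 and 4.17 (1.56). The sources used here do not say whether counting used strand, so reads of HIF1A and of this antisense RNA may not be fully told apart. Protein was not measured here.

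Against 12.3% of all tested genes that rose, 2 of 12 genes that sense oxygen or degrade HIF rose and none fell. Both encode prolyl hydroxylases: EGLN3 went from 4.98 and 3.79 to 20.2 and 20.8 (log2 change 2.11), and EGLN1 from 86.1 and 88.4 to 156.5 and 157.2 (0.84). The other 10, among them VHL (0.02) and the asparagine hydroxylase gene HIF1AN (0.03), did not pass. Of 10 co-regulators only CITED2, which competes with HIF for the coactivator p300, rose (133.4 and 137.9 to 196.4 and 189.1, log2 change 0.51). TRIM28 differed by -0.14 (adjusted p = 0.0534). It passed as lower with quantile normalization (-0.16, adjusted p = 0.0378), with the 4 libraries labelled shCHD4 alone (0.00666), and without either shSC 1% O2 library (replicate 1, adjusted p = 0.0302, and replicate 2, adjusted p = 0.0304) or either shSC 20% O2 library (0.0295 and 0.0294). The co-regulators that rose numbered 2 without any 1 of these 4 shSC libraries or without 20% O2 replicate 2.

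Most genes of glucose use rose. Of 22 tested glucose transporters and glycolytic enzymes 19 rose and 2 fell, with a median log2 change of 0.71. PGK1, which makes ATP from 1,3-bisphosphoglycerate, went from 798.1 and 764.7 to 1891.9 and 1934.7 (1.29, adjusted p = 1.96e-13). LDHA, which turns pyruvate into lactate, went from 1480.2 and 1418.3 to 3445.5 and 3516.2 (1.26). PFKFB3, which makes the activator of phosphofructokinase, went from 79.9 and 80.6 to 190.7 and 189.1 (1.24), and HK2, a hexokinase, had a change of 1.09. The rise of these 4 genes was many times their spread. ALDOC (1.87) rose most, from 1.76 and 1.48. Within the list, the subunits LDHB (430.3 and 414.1 to 362.7 and 372.3, -0.20) and PFKM (-0.20) fell while LDHA and PFKL rose. The PFKM call ended without 1% O2 replicate 1 (-0.17, adjusted p = 0.167), 1% O2 replicate 2 (-0.23, 0.0602) or 20% O2 replicate 1 (-0.13, 0.262).

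At the entry to mitochondria, PDK1, the kinase that switches off pyruvate dehydrogenase, went from 11.3 and 13.0 to 34.7 and 33.3 (log2 change 1.45). PDK3 (0.41) and the mitochondrial protease gene LONP1 (0.21) also rose. The opposing phosphatase genes split: PDP2 fell from 54.2 and 60.2 to 44.9 and 43.6 (-0.36), and PDP1 rose by a narrow margin (0.15, adjusted p = 0.0484). Of the 14 tested genes of this list 4 rose and 1 fell, and 2 rose without 1% O2 replicate 1, where LONP1 no longer passed (adjusted p = 0.0552), and 2 fell without shSC 20% O2 replicate 1 or 2. The list median was -0.01, and DLD differed by -0.07 (adjusted p = 0.271). Genes of acid and lactate transport, 10 tested, rose in 4 cases and fell in 1. The lactate transporter genes SLC16A3 (MCT4), from 168.7 and 174.9 to 338.7 and 338.5 (0.98), and SLC16A1 (MCT1), from 2.62 and 1.86 to 4.95 and 4.88 (1.00), rose. SLC16A7, of the same family, did not pass (-0.05, adjusted p = 0.698). The bicarbonate transporter gene SLC4A4 fell by 0.39, a call that ended without 1% O2 replicate 1 (adjusted p = 0.0649), 1% O2 replicate 2 (0.135) or 20% O2 replicate 2 (0.154).

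Glycogen genes rose in 9 of 13 cases with none falling (median 0.19). GBE1, the branching enzyme, went from 158.8 and 157.2 to 269.6 and 277.1 (log2 change 0.79), PPP1R3C, a glycogen-targeting phosphatase subunit, from 1.95 and 1.76 to 4.12 and 4.31 (1.00), and PGM1, which links glucose phosphates to glycogen, rose by 0.52. The count was 5 without 1% O2 replicate 1, 1% O2 replicate 2 or 20% O2 replicate 1. The share of falls among respiration genes was near that over all tested genes, of which 10.7% fell and 12.3% rose. Of 38 complex I genes 4 fell and 1 rose (median -0.05), and of 38 genes of complexes II to V 5 fell and none rose (median -0.05). No fall in complex I remained without 1% O2 replicate 1 or 20% O2 replicate 1, and 1 remained without 1% O2 replicate 2. In complexes II to V the count was 0 without 1% O2 replicate 1 and 1 without 20% O2 replicate 1, and 9 without shSC 20% O2 replicate 1 or 2. Of 18 genes of the tricarboxylic acid cycle 6 fell and 1 rose (median -0.10), with CS, citrate synthase, from 220.1 and 218.6 to 187.0 and 191.6 (-0.21) and FH, fumarase, at -0.23, and 2 fell without 1% O2 replicate 1 or 20% O2 replicate 1. The single rise did not pass without 1% O2 replicate 2, nor that in complex I with any 1 library labelled shCHD4 left out.

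Mitophagy genes rose in 4 of 12 cases and fell in 1, but their sizes were unequal. Beside BNIP3, its relative BNIP3L (NIX) went from 99.2 and 99.5 to 301.6 and 303.3 (log2 change 1.6), whereas NBR1, an autophagy receptor, rose by 0.26. The list median was 0.11. SQSTM1 (p62, -0.12) and PINK1 (0.16) passed by a narrow margin and did not pass with any 1 of the libraries labelled shCHD4 left out, with adjusted p of 0.149 to 0.222 and of 0.0517 to 0.168. Among 11 brakes on mTORC1, DDIT4 (2.49), the kinase gene PRKAA2 (22 and 24.1 to 32.0 and 32.1, 0.47) and SESN2 (0.28) rose and the mTORC1 inhibitor gene AKT1S1 fell by 0.18. The AKT1S1 call ended without 1% O2 replicate 2 (adjusted p = 0.215), 20% O2 replicate 1 (0.0554) or 20% O2 replicate 2 (0.121).

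**Figure D2:**
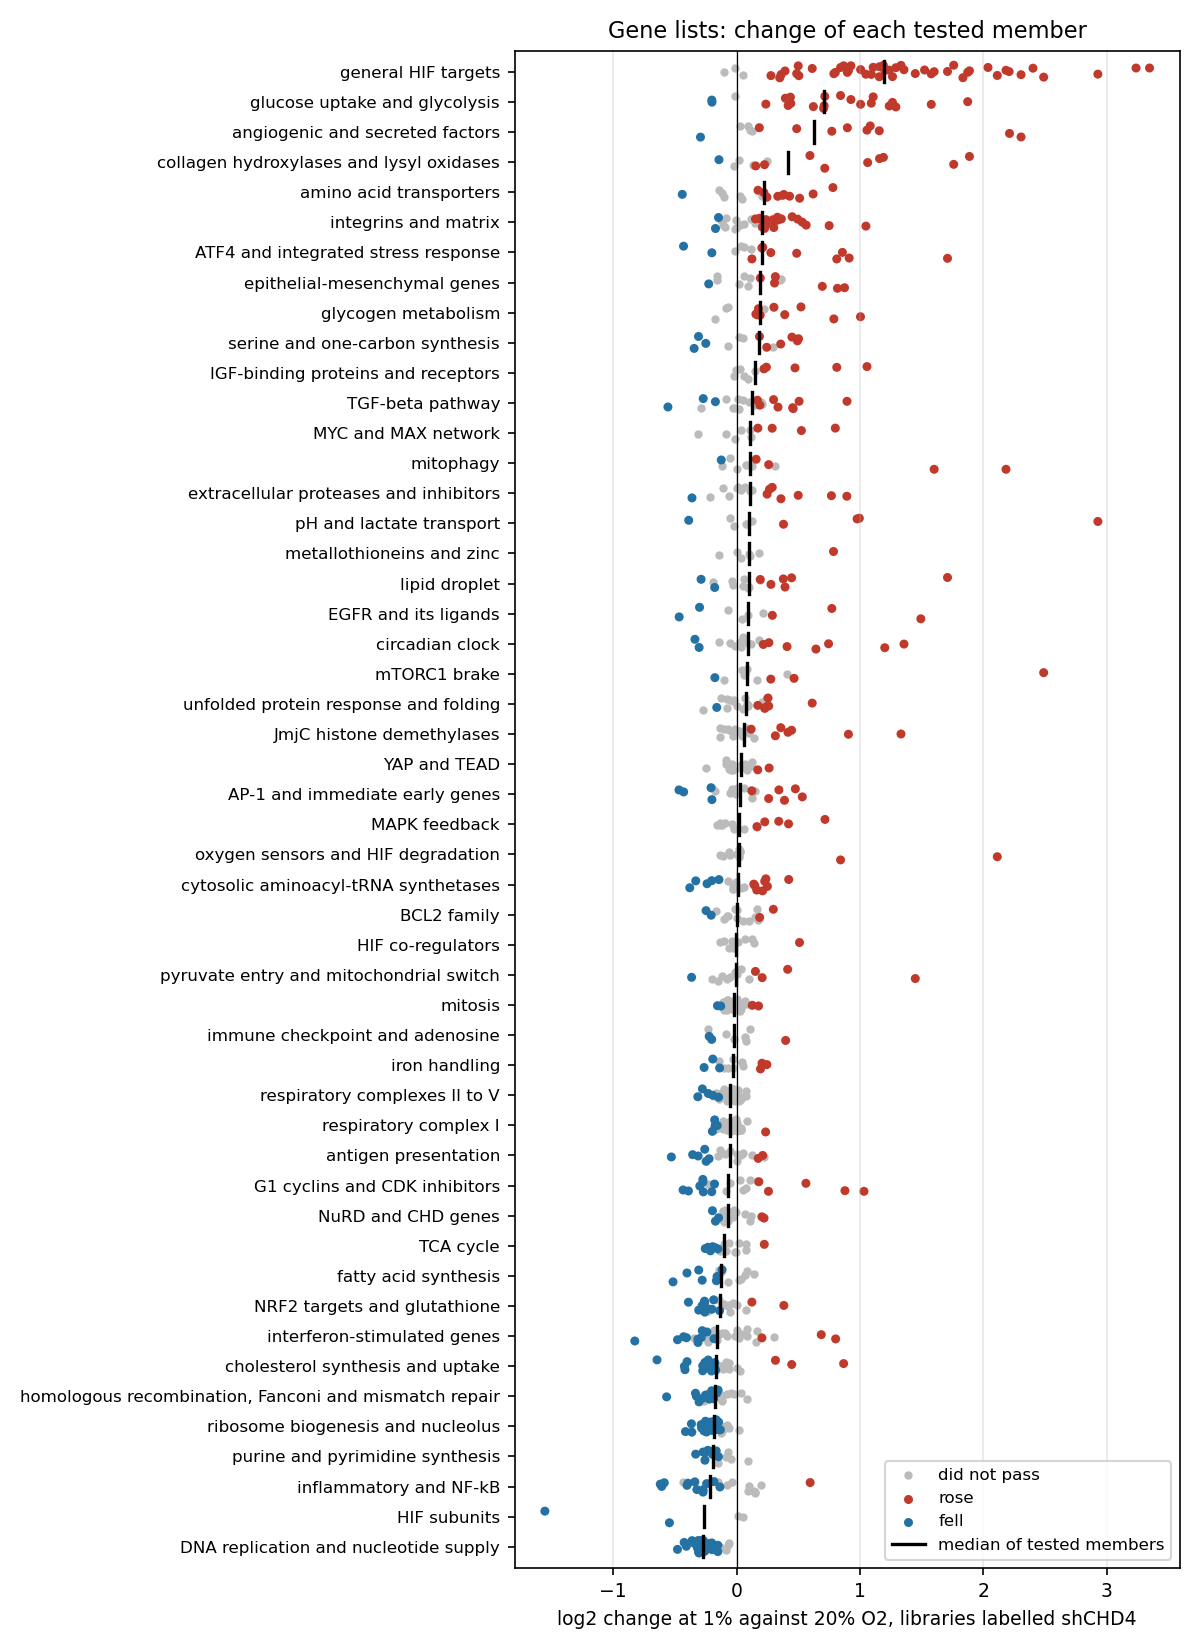
Log2 change at 1% against 20% O2 in the libraries labelled shCHD4 for each tested member of each gene list, ordered by median below the general HIF list. Red points rose and blue points fell by limma at a false discovery rate of 0.05, grey points did not pass, and black bars are medians, from 1.2 for general HIF targets to -0.27 for DNA replication.

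Secreted factors of vessel growth rose in 9 of 14 cases and fell in 1 (median 0.63). VEGFA, the main vascular growth factor, went from 185.3 and 179.2 to 409.8 and 404.0 (log2 change 1.16, adjusted p = 1.96e-13), and IGFBP3, which binds insulin-like growth factors, from 15.7 and 15.8 to 32.9 and 33.8 (1.06). PGF, a growth factor of the VEGF family, fell from 17.0 and 17.5 to 14.9 and 13.1 (-0.29), which did not pass without 1% O2 replicate 2 (adjusted p = 0.187), 20% O2 replicate 1 (0.0567) or 20% O2 replicate 2 (0.0792). Enzymes that hydroxylate and cross-link collagen rose in 9 of 14 cases (median 0.42). LOX, a lysyl oxidase, went from 20.9 and 21.2 to 72.3 and 73.0 (1.76), P4HA2 from 17.7 and 17.6 to 39.9 and 41.9 (1.19) and PLOD2, a lysyl hydroxylase, from 109.3 and 116.4 to 253.1 and 252.0 (1.16). LEPREL1, a prolyl 3-hydroxylase gene, fell by 0.14 and did not pass with any 1 of these 4 libraries left out (adjusted p from 0.0872 to 0.183).

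Integrin and matrix genes rose in 19 of 35 cases and fell in 2 (median 0.21). ITGB4, the integrin of hemidesmosomes, went from 55.2 and 59.1 to 121.3 and 116.1 (log2 change 1.05), COL6A3 from 24.1 and 26.4 to 45.4 and 40.3 (0.75), and COL5A1 (0.56) and COL13A1 (0.50) also rose. The 2 falls, THBS1 (-0.15) and COL4A1 (-0.17), ended without 1% O2 replicate 2 (adjusted p = 0.0891 and 0.185) or 20% O2 replicate 1 (0.0768 and 0.142), and THBS1 also without 1% O2 replicate 1 (0.121) or 20% O2 replicate 2 (0.066). Of 17 extracellular proteases and inhibitors 7 rose and 1 fell (median 0.11), and none fell without 1% O2 replicate 1 or 20% O2 replicate 1. PLAT, tissue plasminogen activator, went from 79.6 and 80.5 to 145.4 and 153.1 (0.89), and ADAM8, a membrane metalloprotease, from 49.9 and 55.2 to 91.0 and 88.7 (0.77). TIMP2 differed by 0.11 and passed only where spread or samples were set otherwise: with the 4 libraries labelled shCHD4 alone (adjusted p = 0.0265) and without shSC 20% O2 replicate 1 (0.0455) or replicate 2 (0.0456).

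TGF-beta pathway genes rose in 8 of 22 cases and fell in 3 (median 0.13). LTBP3, which tethers latent TGF-beta to matrix, went from 14.9 and 15.7 to 29.9 and 27.8 (log2 change 0.90), and TGFBI (0.51), LTBP2 (0.46) and the receptor gene TGFBR2 (0.34) rose. Rises numbered 5 without 1% O2 replicate 1, 1% O2 replicate 2 or 20% O2 replicate 1, and falls numbered 1, 0 and 0 there and 1 without 20% O2 replicate 2. Of 15 tested epithelial and mesenchymal genes 6 rose, among them the epithelial CLDN7 (2.2 and 2.93 to 4.98 and 5.13, 0.88), EHF (8.05 and 9.0 to 15.5 and 15.3, 0.82) and KRT19 (0.69) and the mesenchymal VIM (5516.2 and 5501.3 to 6855.8 and 6782.2, 0.31). The epithelial keratin KRT18 fell by 0.23, which ended without 1% O2 replicate 1 (adjusted p = 0.0639) or 20% O2 replicate 1 (0.0574), and 2 members fell without shSC 1% O2 replicate 1 or 2.

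Among growth factor systems, ERRFI1, a feedback inhibitor of EGFR, rose most, from 216.9 and 213.6 to 606.4 and 607.7 (log2 change 1.49, adjusted p = 8.88e-15). TGFA, an EGFR ligand, rose by 0.77 and EGFR itself by 0.29, while NRG1, a ligand of ERBB3 and ERBB4, fell from 65.2 and 65.7 to 47.9 and 46.6 (-0.47). Of 9 tested genes of that list 3 rose and 2 fell, or 1 fell without 1% O2 replicate 1 or 20% O2 replicate 2. IGF-binding proteins and receptors rose in 5 of 11 cases, or 3 without 20% O2 replicate 1, with IGFBP1 from 46.4 and 48.8 to 83.4 and 84.6 (0.81) and IGFBP6 at 0.47. IGFBP4 stood at 1064.9 and 1032.8 and at 1047.8 and 1047.9.

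Chromatin and clock genes held a few strong responders among members that did not pass. JmjC histone demethylases, which use oxygen to remove methyl groups, rose in 7 of 20 cases with none falling (median 0.06), or 1 falling without shSC 20% O2 replicate 2. KDM3A, which acts on histone H3 lysine 9, went from 60.9 and 57.5 to 152.7 and 147.0 (log2 change 1.33), KDM4B from 25.4 and 26.6 to 50.2 and 48.3 (0.91), and KDM6B (0.42) and KDM5B (0.31) also rose. Clock genes rose in 7 of 19 cases and fell in 2 (median 0.09). BHLHE40, a repressor in the clock loop, went from 57.1 and 51.8 to 128.8 and 122.7 (1.2), RORA, a nuclear receptor, from 3.33 and 3.93 to 10.7 and 9.40 (1.36), and NFIL3 from 17.9 and 16.5 to 29.4 and 28.8 (0.75). The clock count of rises was 3 without 1% O2 replicate 2 and 4 without 20% O2 replicate 1. The 2 falls were PER2 (-0.34) and PER3 (-0.30), and neither passed without 1% O2 replicate 2 (adjusted p = 0.0992 and 0.0643) or 20% O2 replicate 2 (0.061 and 0.0631), nor PER2 without 20% O2 replicate 1 (0.0645). Of 20 NuRD and CHD genes 2 rose and 3 fell (median -0.07), and the 5 changes were under 1.5-fold. Both counts lie near the shares over all tested genes, 12.3% risen and 10.7% fallen. The falls numbered 1 without 1% O2 replicate 1, 1% O2 replicate 2 or 20% O2 replicate 2, and no rise passed without 1% O2 replicate 1 or 20% O2 replicate 1.

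Signalling regulators split by gene. In the MYC network 4 of 10 rose, led by the MYC antagonists MXI1 (30.4 and 31.2 to 55.3 and 52.8, log2 change 0.80) and MXD4 (39.6 and 40.8 to 57.7 and 58.4, 0.53), and 2 rose without 1% O2 replicate 1 or 20% O2 replicate 1. No member fell, or 1 without any 1 of the shSC libraries. MYC itself differed by 0.11 (adjusted p = 0.0511). It passed without shSC 20% O2 replicate 1 (adjusted p = 0.0319) or replicate 2 (0.0318), with TMM scaling (0.0435), with a mean of at least 5 (0.0467) and with the 4 libraries labelled shCHD4 alone (0.035). Of 20 AP-1 and immediate early genes 6 rose and 4 fell (median 0.03). MAFF (29.0 and 28.1 to 41.4 and 41.8, 0.53), KLF4 (0.48), FOSL2 (0.39) and JUN (0.34) rose, and ZFP36, which destabilises cytokine mRNAs, fell from 17.0 and 18 to 12.5 and 12.4 (-0.47), as did EGR1 (-0.43) and FOSL1 (-0.21). KLF2, the remaining fall (-0.20, adjusted p = 0.0484), did not pass with any 1 of these 4 libraries left out (adjusted p from 0.145 to 0.217). Feedback inhibitors of MAP kinases rose in 5 of 14 cases with none falling, or 3 without 1% O2 replicate 1, 1% O2 replicate 2 or 20% O2 replicate 1, and 1 fell without shSC 20% O2 replicate 1 or 2. The rises included DUSP1, a nuclear phosphatase, from 42.1 and 43.4 to 68.3 and 73.0 (0.72) and DUSP6 from 136.4 and 140.6 to 185.7 and 185.6 (0.42).

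Genes of amino acid supply rose in part. ATF4 is the transcription factor of the integrated stress response, and of 15 tested genes of that response 9 rose and 2 fell (median 0.21). ASNS, asparagine synthetase, went from 56.6 and 54.3 to 108.8 and 100.8 (log2 change 0.91), CHAC1, which breaks down glutathione, from 5.54 and 4.90 to 10.2 and 9.48 (0.86), and VLDLR, a lipoprotein receptor, from 10.4 and 9.42 to 34.3 and 32.6 (1.71). The count of rises was 5 without 1% O2 replicate 1 or 20% O2 replicate 1. The falls were GDF15 (6.32 and 5.90 to 4.16 and 4.67, -0.43) and ATF5 (-0.20), and ATF5 did not pass with any 1 of these libraries left out (adjusted p from 0.0714 to 0.185). GDF15 did not pass with edgeR (adjusted p = 0.0604) or DESeq2 (0.0827) on the recovered reads. Amino acid transporters rose in 10 of 17 cases and fell in 1 (median 0.22), with SLC7A5, the large neutral amino acid transporter, from 1068.0 and 1077.0 to 1559.8 and 1498.1 (0.51), its partner SLC3A2 at 0.37 and the glycine transporter SLC6A9 from 9.62 and 8.59 to 14.5 and 14 (0.62). SLC43A2, the only fall (-0.44), did not pass without 1% O2 replicate 2 (adjusted p = 0.0891) or 20% O2 replicate 2 (0.0859).

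Serine and one-carbon genes rose in 6 of 13 cases and fell in 3 (median 0.19). PSAT1 (124.1 and 118.0 to 173.7 and 169.6, log2 change 0.50), PHGDH (0.49) and the mitochondrial SHMT2 (0.45) rose, while MTHFD1, of the cytosolic arm, fell from 302.5 and 288.0 to 228.0 and 236.9 (-0.34). Aminoacyl-tRNA synthetases split, with 8 of 20 higher and 5 lower (median 0.02). DARS went from 141.9 and 140.9 to 185.7 and 193.8 (0.42) and CARS rose by 0.25, whereas VARS went from 330.6 and 338.0 to 263.0 and 250.8 (-0.38) and FARSB fell by 0.33. Their rises numbered 5, 4, 5 and 5 without 1% O2 replicate 1, 1% O2 replicate 2, 20% O2 replicate 1 and 20% O2 replicate 2, and their falls 3 without 1% O2 replicate 1 or 20% O2 replicate 1. In the unfolded protein response 7 of 24 rose and 1 fell (median 0.08), led by ERO1L, the oxidase of disulfide formation (110.5 and 119.8 to 176.2 and 176.4, 0.61), with XBP1 at 0.26, and 4 rose without 1% O2 replicate 1. The 1 fall did not pass with any 1 of these 4 libraries left out.

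Some genes of lipid synthesis fell and some of lipid storage rose. Of 27 cholesterol genes 13 fell and 3 rose (median -0.17). DHCR7, the last enzyme of one branch of cholesterol synthesis, went from 46.6 and 48.5 to 34.1 and 36.8 (log2 change -0.42). The rises were INSIG2 (24.5 and 27.7 to 48.8 and 47.2, 0.87) and INSIG1 (0.45), which hold the sterol regulator SREBP in the endoplasmic reticulum, and the exporter gene ABCA1 (0.32). ABCA1 did not pass without 1% O2 replicate 1 (adjusted p = 0.0684) or 20% O2 replicate 1 (0.0826), and the falls numbered 6, 8 and 7 without 1% O2 replicate 1, 1% O2 replicate 2 and 20% O2 replicate 1. Of 15 fatty acid synthesis genes 7 fell and none rose (median -0.12), or 4 without 1% O2 replicate 1 or 20% O2 replicate 1. FASN, fatty acid synthase, went from 311.4 and 341.0 to 238.1 and 218.1 (-0.52) and ACACA, acetyl-CoA carboxylase, from 118.0 and 122.9 to 92.7 and 89.3 (-0.40). Lipid droplet genes rose in 6 of 16 cases and fell in 2, with G0S2, an inhibitor of fat breakdown, from 43.7 and 40.8 to 53.3 and 56.9 (0.38) and the droplet coat gene PLIN2 at 0.28. No droplet gene fell without 1% O2 replicate 2 or 20% O2 replicate 2.

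Of 35 tested genes of DNA replication and nucleotide supply 30 fell and none rose, with a median log2 change of -0.27, and 21 to 31 fell with any 1 library left out. MCM10, which helps to activate the replicative helicase, went from 109.0 and 104.8 to 76.6 and 82.5 (-0.42), CDC6, a licensing factor, from 143.7 and 140.5 to 111.0 and 117.0 (-0.32), and RRM1, of ribonucleotide reductase, from 293.5 and 289.0 to 228.4 and 241.1 (-0.31). ORC1, of the origin recognition complex, fell most of the list (-0.48). Each of these changes was well under 2-fold, and the replicate pairs did not overlap. Of 32 mitosis genes 2 rose and 2 fell (median -0.02). No rise passed without 1% O2 replicate 1 or 20% O2 replicate 1, and no fall without those or 1% O2 replicate 2. MKI67, a proliferation marker, stood at 905.9 ± 47.6 at 20% O2 and at 924.1 ± 50.3 at 1% O2 (SD, n = 2 each), a difference within the spread. TOP2A differed by -0.08 (adjusted p = 0.183) and passed as lower with quantile normalization (-0.16, adjusted p = 0.0148), where 4 members were lower.

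Of 22 G1 regulators 5 rose and 8 fell (median -0.07). CCNG2, a cyclin tied to cell cycle arrest, went from 47.6 and 47.6 to 98.7 and 97.2 (log2 change 1.03), CCND2 from 1.46 and 1.10 to 2.99 and 2.55 (0.88) and the CDK inhibitor gene CDKN1C from 3.48 and 3.79 to 5.25 and 5.98 (0.56). CDC25A, a phosphatase that starts S phase, went from 61.8 and 59.2 to 42.9 and 46.4 (-0.43) and CCND3 fell by 0.30. Rises numbered 3 without 1% O2 replicate 1 and falls 5 without 20% O2 replicate 1. Repair genes of homologous recombination, the Fanconi pathway and mismatch repair fell in 13 of 28 cases with none rising (median -0.18). RAD54L, a recombination motor, went from 41.4 and 43.6 to 28.6 and 28.4 (-0.57), and XRCC3 (-0.33) and the exonuclease gene EXO1 (-0.33) fell. The count was 7 without 1% O2 replicate 1 and 8 without any 1 of the other 3 libraries labelled shCHD4.

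Ribosome biogenesis genes fell in 25 of 34 cases with none rising (median -0.18). BOP1, which matures the large subunit RNA, went from 99.6 and 102.4 to 74.2 and 77.1 (log2 change -0.41), NOP2 from 62.2 and 64.2 to 49.3 and 48.8 (-0.36) and POLR1A, the large subunit of RNA polymerase I, from 187.0 and 197.6 to 160.6 and 154.3 (-0.29). The count was 13, 14 and 12 without 1% O2 replicate 1, 1% O2 replicate 2 and 20% O2 replicate 1. Purine and pyrimidine synthesis genes fell in 9 of 15 cases with none rising (median -0.19), with CTPS1, CTP synthase, from 94.0 and 86.6 to 69.9 and 73.4 (-0.33). NRF2 targets and glutathione genes fell in 10 of 23 cases and rose in 2 (median -0.14), or fell in 6 without 20% O2 replicate 1. GSR, glutathione reductase, went from 43.4 and 43.4 to 31.9 and 34.2 (-0.39), and the pentose phosphate genes PGD (-0.28) and TKT (-0.26) fell, while the cystine transporter gene SLC7A11 rose by 0.38. With any 1 library labelled shCHD4 left out, 1 of the 2 rises passed.

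**Figure D3:**
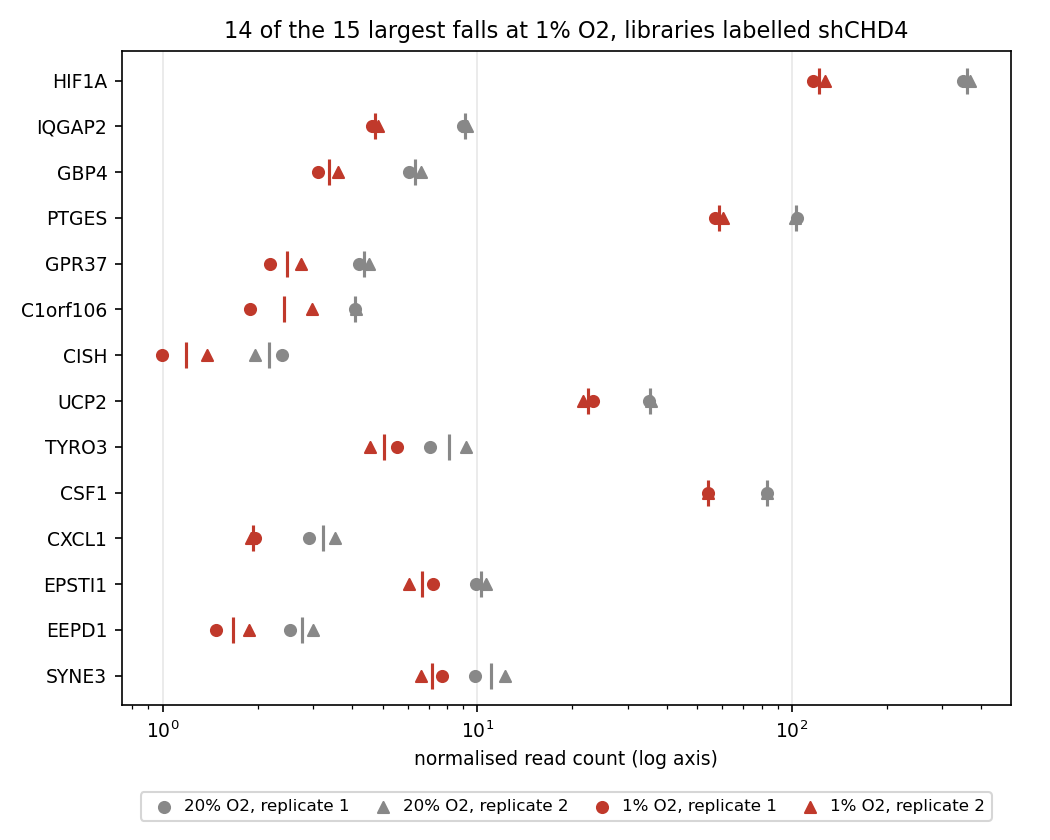
Normalised read counts (log axis) of 14 of the 15 largest falls at 1% O2 in the libraries labelled shCHD4, each point a library and each bar the mean of 2. Both 1% O2 libraries (red) lie below both 20% O2 libraries (grey) for all 14 genes, by 2.94-fold for HIF1A and by 1.5-fold to 1.84-fold for the others.

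IQGAP2, a scaffold that binds actin regulators, went from 9.02 and 9.28 to 4.64 and 4.84 (log2 change -0.88, adjusted p = 0.000171). GBP4, an interferon-induced GTPase, went from 6.06 and 6.62 to 3.13 and 3.61 (-0.83), and PTGES, prostaglandin E synthase, from 103.8 and 101.9 to 56.9 and 60.4 (-0.81, adjusted p = 2.86e-09). PTGES had far more reads than the other 2, 5728 at 20% O2 against 510 and 354, and its SE was 0.0536. GPR37, an orphan receptor, went from 4.19 and 4.52 to 2.20 and 2.76 (-0.71). UCP2, a mitochondrial carrier, went from 35.1 and 35.7 to 23.4 and 21.7 (-0.64), and CSF1, the macrophage growth factor, from 83.4 and 83.4 to 54.2 and 54.1 (-0.62). C1orf106, now named INAVA (-0.67), the receptor kinase gene TYRO3 (-0.63), the chemokine gene CXCL1 (-0.61), the interferon-induced EPSTI1 (-0.60) and SYNE3 (-0.59), of the nuclear envelope, fell on between 139 and 618 reads per group except CXCL1, which fell from 180 to 111 reads. CISH, an inhibitor of cytokine signalling, went from 2.4 and 1.97 to 0.996 and 1.38 (-0.67, adjusted p = 0.031) and EEPD1 from 2.54 and 3.0 to 1.48 and 1.87 (-0.59, adjusted p = 0.0273). Neither passed without 1% O2 replicate 1 (adjusted p = 0.236 and 0.213), 20% O2 replicate 1 (0.198 and 0.0599) or 20% O2 replicate 2 (0.0515 and 0.154).

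Inflammatory genes fell in 12 of 25 cases and rose in 1 (median -0.22), or rose in 3 without 20% O2 replicate 1. Beside CSF1 and CXCL1, IL8 (CXCL8), which draws neutrophils, went from 34.6 and 33.5 to 24.4 and 27.0 (log2 change -0.40) and CSF2 from 2.36 and 2.07 to 1.2 and 1.41 (-0.59), while PTGS2, cyclooxygenase 2, went from 11.4 and 12 to 19.1 and 16.8 (0.60). PTGS2 and PTGES, successive enzymes of prostaglandin E2 synthesis, thus moved in opposite directions. Interferon-stimulated genes fell in 10 of 34 cases and rose in 3 (median -0.16), or fell in 5 without 1% O2 replicate 1 and 6 without 20% O2 replicate 1. GBP1 fell from 32.1 and 32.3 to 23.8 and 23.8 (-0.43), and ISG20 (1.42 and 1.35 to 2.85 and 2.72, 0.80) and IRF9, of the interferon transcription complex (7.93 and 8.21 to 13.8 and 12.8, 0.69), rose.

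Antigen presentation genes fell in 6 of 19 cases and rose in 2 (median -0.06). PSMB9, of the immunoproteasome, went from 17.6 and 17.6 to 11.9 and 12.2 (log2 change -0.53), and the peptide transporter genes TAP2 (167.2 and 176.1 to 133.8 and 142.7, -0.31) and TAP1 (-0.26) fell, while HLA-E rose by 0.21. Of the 2 rises 1 passed without 1% O2 replicate 2 or 20% O2 replicate 1. HLA genes share sequence, so reads may be split among them. Of 9 checkpoint and adenosine genes, NT5E (CD73), which makes adenosine, rose from 780.3 and 787.5 to 1019.7 and 1046.2 (0.40), and CD274 (PD-L1, -0.22) and CD276 (-0.20) fell. The CD274 and CD276 calls ended without 1% O2 replicate 2 (adjusted p = 0.0534 and 0.104), and CD276 also without 1% O2 replicate 1 (0.215), 20% O2 replicate 1 (0.0701) or 20% O2 replicate 2 (0.224).

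The response was then set against that of the shSC libraries, in which 17.4% of tested genes rose and 17.9% fell with 1% O2. The interaction contrast, the log2 change under the shCHD4 label minus that under shSC, passed for 551 genes (4.36%), 280 of them higher (2.21%) and 271 lower (2.14%) under the shCHD4 label. The count was 251, 245, 322 and 360 without 1% O2 replicate 1, 1% O2 replicate 2, 20% O2 replicate 1 and 20% O2 replicate 2 of the shCHD4 label, 317 without shSC 1% O2 replicate 1 and 994 without shSC 20% O2 replicate 1. Of the 63 genes with 2-fold rises, 61 also rose under shSC, 12 had a larger and 12 a smaller log2 change under the shCHD4 label, and for 39 the difference did not pass. Of the 50 general HIF targets 7 had a larger and 12 a smaller change, and the list medians were 1.2 and 1.23. Levels at 20% O2 differed between the labels for some of these genes, such as DDIT4, and the contrast compares ratios and not amounts.

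**Figure D4:**
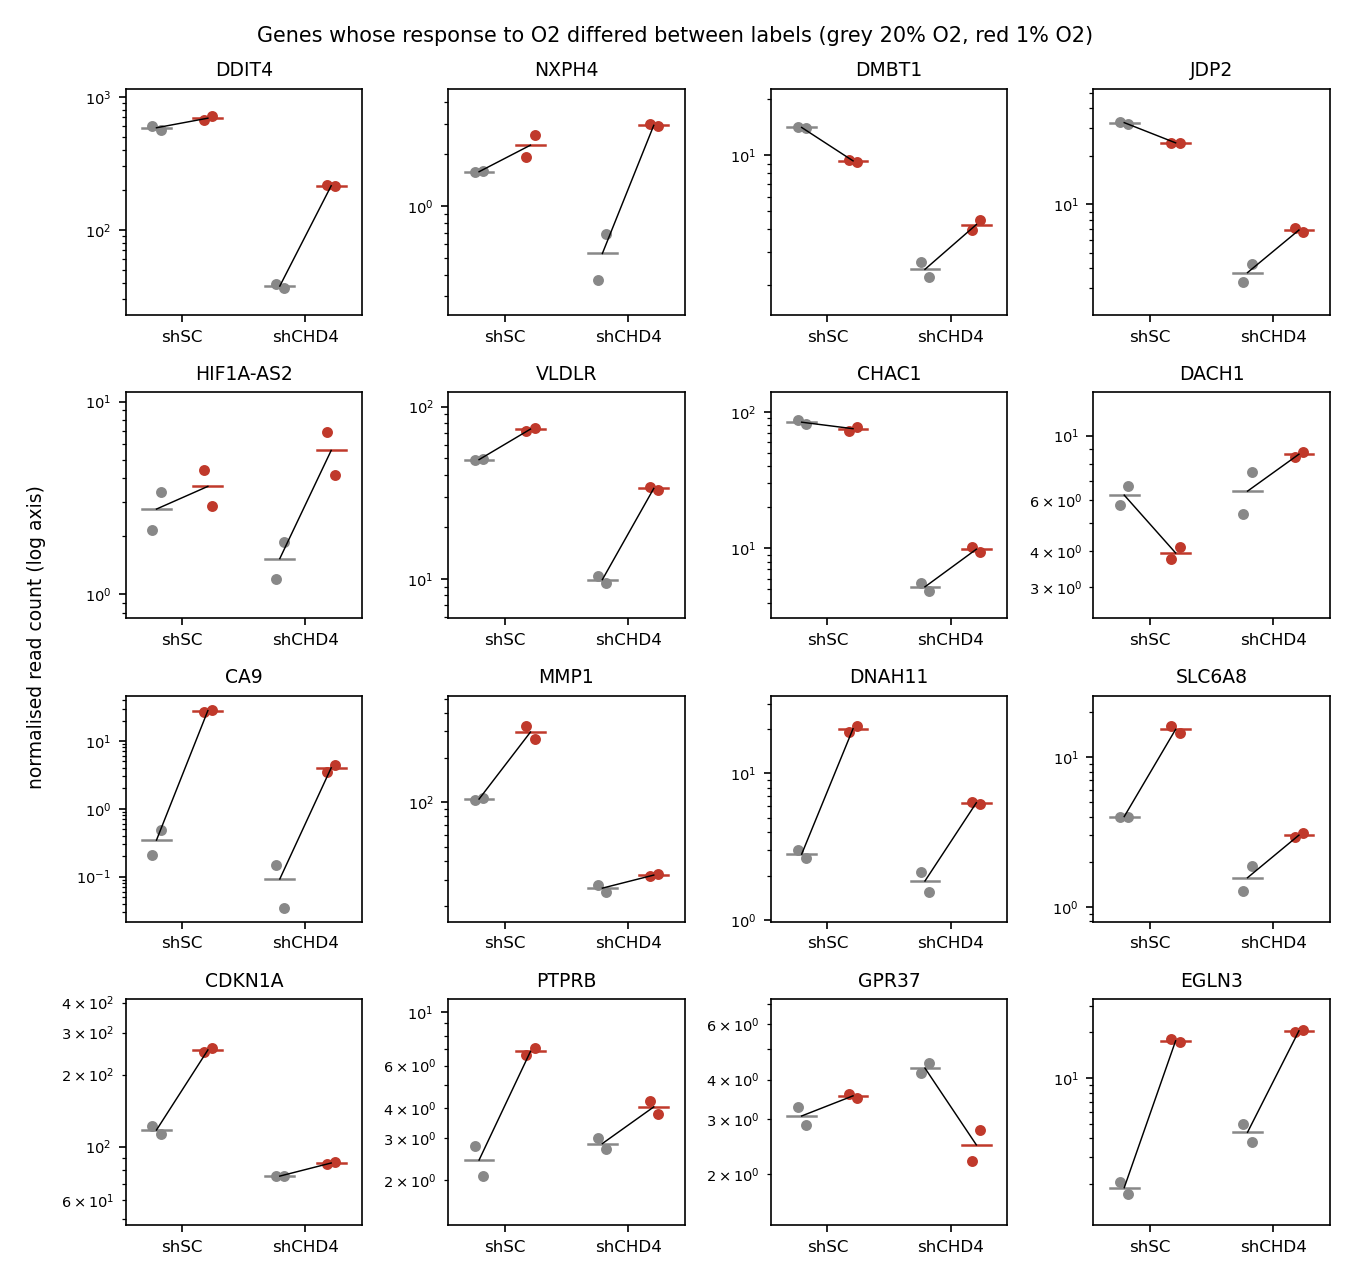
Normalised read counts (log axes) of the 8 genes with the largest positive (upper 2 rows) and the 8 with the largest negative (lower 2 rows) difference in response, among genes that also passed under the shCHD4 label. Points are libraries, bars are means of 2, grey is 20% and red is 1% O2, and lines join the group means, so steeper lines are larger log2 changes.

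DDIT4 had the largest positive difference. Under shSC it stood at 604.5 and 567.2 at 20% O2 and at 666.8 and 716.1 at 1% O2 (log2 change 0.24), so that the difference was 2.25 (95% interval 2.11 to 2.4, adjusted p = 2.67e-13). Even after its rise the shCHD4-labelled libraries, at 216.3 and 212.9, lay below the lowest shSC library. VLDLR rose under both labels, from 48.9 and 49.5 to 72.4 and 75.6 under shSC (0.58), with a difference of 1.126 (adjusted p = 8.95e-07). CHAC1 stood at 87.1 and 81.3 and at 72.6 and 78.3 under shSC (-0.16), with a difference of 1.02. JDP2, a repressor that pairs with JUN and ATF proteins, went from 3.26 and 4.24 to 7.11 and 6.72 under the shCHD4 label (0.81) and from 32.9 and 32.0 to 24.3 and 24.2 under shSC (-0.41). DMBT1, a secreted scavenger receptor, likewise changed in opposite directions, by 0.69 and -0.57. In all 5 genes the shCHD4-labelled libraries were lower than the shSC libraries at both O2 levels.

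NXPH4, a neurexophilin, had a difference of 1.36 (adjusted p = 0.00365) on 30 reads at 20% O2, which did not pass with no filter on low values (0.0589). HIF1A-AS2 had a difference of 1.22 (adjusted p = 0.0369), which did not pass without 1% O2 replicate 1 (adjusted p = 0.195) or 20% O2 replicate 1 (0.142) of the shCHD4 label, nor without shSC 1% O2 replicate 2 (0.143) or shSC 20% O2 replicate 2 (0.137). DACH1, a transcription factor of development, stood at 5.39 and 7.48 and at 8.45 and 8.80 under the shCHD4 label (0.41) and fell by 0.60 under shSC. DACH1 did not pass in difference with no filter on low values (adjusted p = 0.0876) or no variance trend (0.0621). Its rise did not pass without 1% O2 replicate 1 (adjusted p = 0.104), 1% O2 replicate 2 (0.145) or 20% O2 replicate 1 (0.404), while its difference of 1.01 passed with any 1 library left out.

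CA9 had the most negative difference, -2.16 (95% interval -2.67 to -1.66, adjusted p = 2.63e-05). At 1% O2 it stood at 27.0 and 29.0 under shSC against 3.54 and 4.49, and at 20% O2 at 0.207 and 0.483 against 0.150 and 0.0345. The difference in ratio was -0.88 with edgeR (adjusted p = 0.666) and -0.84 with DESeq2 (adjusted p = 0.736) on the recovered reads, since 5 and 18 reads at 20% O2 set it. MMP1, a collagenase, went from 27.7 and 24.9 to 31.9 and 32.5 under the shCHD4 label (0.29) and from 103.5 and 106.3 to 326.3 and 267.6 under shSC (1.49), a difference of -1.20 (adjusted p = 1.40e-06). Its smaller rise did not pass without 1% O2 replicate 2 (adjusted p = 0.0581) or 20% O2 replicate 2 (0.089). CDKN1A, the CDK inhibitor p21, went from 75.2 and 75.5 to 84.6 and 86.3 (0.18) against 121.5 and 113.3 to 248.6 and 258.5 under shSC (1.11), a difference of -0.93. For CDKN1A the rise under the shCHD4 label did not pass with any 1 of these 4 libraries left out (adjusted p from 0.0512 to 0.101).

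The other negative differences were DNAH11, an axonemal dynein (-1.10), the creatine transporter SLC6A8 (-1.03), the phosphatase PTPRB (-0.90), GPR37 (-0.90) and EGLN3 (-0.81). With no filter on low values none of these differences passed (adjusted p from 0.0549 to 0.108). DNAH11 went from 2.13 and 1.55 to 6.42 and 6.19 against 2.98 and 2.64 to 19.2 and 21.2 under shSC. GPR37 fell under the shCHD4 label and differed by 0.19 under shSC (adjusted p = 0.293), and its difference did not pass without 1% O2 replicate 1 (adjusted p = 0.064). PTPRB did not pass in difference without 1% O2 replicate 2 (adjusted p = 0.0641), and its rise of 0.44 did not pass with any 1 of the 4 libraries left out (0.0547 to 0.196). EGLN3 reached 20.2 and 20.8 under the shCHD4 label and 18.1 and 17.2 under shSC, so the smaller ratio came with a higher starting level of 4.98 and 3.79 against 2.07 and 1.71.

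Genes called in opposite directions numbered 40, of which 29 rose under the shCHD4 label and fell under shSC and 11 did the reverse. Genes picked in this way have large differences by construction, so their interaction test adds nothing. NNMT, which methylates nicotinamide, went from 10.9 and 10.2 to 15.5 and 15 (log2 change 0.51) and fell by 0.35 under shSC. TRAF1, a signalling adaptor of the TNF receptor family, went from 16.6 and 17.3 to 11.1 and 11.6 (-0.56) and rose by 0.24 under shSC, and RELB, of the alternative NF-kB pathway, fell by 0.32 and rose by 0.22. PGF fell by 0.29 and rose by 0.50 under shSC. Among 34 interferon-stimulated genes the interaction contrast passed as higher under the shCHD4 label for 9 and as lower for none. The list medians were -0.16 under the shCHD4 label and -0.33 under shSC. Among 17 proteases and inhibitors it passed as lower for 6 and as higher for none, with medians of 0.11 and 0.29. Over all tested genes it passed as higher for 2.21% and as lower for 2.14%.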

How the data were processed

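Polyadenylated RNA of 8 MDA-MB-231 libraries was sequenced. Per the submitters' processing notes the tools included TopHat, featureCounts and edgeR with hg19, beside Picard 1.127 and bcl2fastq 2.17. The sources used here give neither the annotation nor the strand setting. The authors deposited 1 signal value per gene and library in a table named for FPKM. The values are whole reads divided by 1 factor per library (100% whole within 0.01 reads), not by gene length, so they are called normalised read counts. The planned limma test was kept, and count tests ran on the recovered reads. Of 19583 rows, 27 bear date-like names, left as they stand, and 12645 genes whose mean over all libraries reached 1 were tested. In limma 3.58.1 (R 4.3.3), 1 fit of 4 group means to log2(value + 0.5) with a variance trend gave each contrast as a two-sided test, on 4 residual plus 13.9 prior degrees of freedom. Calls used Benjamini-Hochberg adjusted p under 0.05. All adjusted p-values are limma's unless another tool is named. An exact permutation test of 2 against 2 cannot go below 0.333. Depth was 24947627 to 31903585 gene-assigned reads per library. No replicate pair was alike enough to be 1 library deposited again, since the chi-square of counts per degree of freedom was 2.07 to 4.29.

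Named were the 15 largest rises and falls (adjusted p under 0.05, mean of at least 2 in the higher group, no overlap), CHD4, for each list the up to 4 passing members of smallest p and, where most did not pass, that of highest mean value, which also grows with transcript length, and the 8 largest differences between labels each way. A few genes that this rule names are not reported here. Chosen after their values were seen were LDHB, PFKM, SLC4A4, PGF, LEPREL1, PER2, PER3, ZFP36, EGR1, FOSL1, KLF2, GDF15, ATF5, THBS1, COL4A1, KRT18, TRAF1, RELB, NNMT, ABCA1, SLC43A2, ALDOC, ORC1, CSF2, CDKN1C, MKI67, ARNT, ARNT2, VHL, HIF1AN, PFKL, PDP1, SLC16A7, RASSF7, JMJD6, TFRC and the genes of the last observations. The members and lists were chosen with earlier results of these data known. Alternatives were 2 pseudocounts, no filter and a mean of at least 5, no variance trend, quantile and TMM scaling, edgeR 4.0.16 and DESeq2 1.42.0, the replicate block, the 4 libraries alone, and each library left out. The scripts were tested on simulated data. Promoters were matched by symbol to RefSeq for 10140 of the tested genes.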

Additional observations from a re-analysis of the deposited data

Results flagged for a closer look

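The log2 response to 1% O2 differed between the shCHD4 and shSC labels for 551 genes, 4.36% of those tested, by the interaction contrast in limma (adjusted p under 0.05). Of the genes whose O2 response was rerun under the alternatives, 65 were among them. Selection raises this count. The 8 genes named each way were picked for passing this contrast, and others, such as TRAF1 and RELB, after their values were seen. Outside these 65, the HIF subunit gene ARNT2 also passed (difference 0.58, adjusted p = 0.0114, log2 change -0.53 under shSC). Each value is the log2 change under the shCHD4 label minus that under shSC. For 34 genes the difference was positive: DDIT4 (2.25), NXPH4 (1.36), DMBT1 (1.27), JDP2 (1.22), HIF1A-AS2 (1.22), VLDLR (1.126), CHAC1 (1.02), DACH1 (1.01), NNMT (0.86), STC1 (0.86), ERRFI1 (0.85), PTGES (0.78), FOSL2 (0.61), VEGFA (0.59), SLC4A4 (0.58), GDF15 (0.56), NFIL3 (0.53), SLC6A9 (0.48), PMAIP1 (0.45), EHF (0.44), SLC7A11 (0.42), CITED2 (0.41), KDM6B (0.40), KLF4 (0.39), MNT (0.38), PFKFB3 (0.36), SPRY2 (0.36), CAV2 (0.34), CCNG2 (0.34), ASNS (0.33), AJUBA (0.30), FASN (0.29), MYC (0.25) and MCL1 (0.22).

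For 31 genes the difference was negative: CA9 (-2.16), MMP1 (-1.20), DNAH11 (-1.10), SLC6A8 (-1.03), CDKN1A (-0.93), PTPRB (-0.90), GPR37 (-0.90), EGLN3 (-0.81), TRAF1 (-0.80), PGF (-0.80), SYNE3 (-0.78), SPAG4 (-0.74), IQGAP2 (-0.72), ANGPTL4 (-0.71), IGFBP3 (-0.68), NDRG1 (-0.67), ZFP36 (-0.62), TMEM45A (-0.62), RELB (-0.54), PLAT (-0.45), KRT19 (-0.41), VIM (-0.37), TGFA (-0.36), TGFBI (-0.33), ITGB4 (-0.32), ATF5 (-0.32), PGM1 (-0.31), BNIP3 (-0.30), IRS2 (-0.29), P4HA1 (-0.29) and COL5A1 (-0.25). The CA9 difference did not pass with edgeR (adjusted p = 0.666) or DESeq2 (adjusted p = 0.736) on the recovered reads. Only the 8 genes named each way had their difference rerun under the alternatives. With no filter on low values NXPH4 (adjusted p = 0.0589), HIF1A-AS2 (0.234), DACH1 (0.0876) and DNAH11 (0.0549) did not pass. Nor did SLC6A8 (0.0775), PTPRB (0.108), GPR37 (0.0909) and EGLN3 (0.107). With no variance trend HIF1A-AS2 (0.221), DACH1 (0.0621), PTPRB (0.0524) and EGLN3 (0.0716) did not pass. Starting levels at 20% O2 differed between the labels for several of these genes, as for DDIT4 and JDP2, and their part in the differences was not tested.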

How the results depend on the processing

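The count of 1552 rises ranged from 812 to 1838 with any 1 library left out, and the 1351 falls from 512 to 1632. Falls numbered 850 with no filter on low values, 772 with no variance trend and 890 with DESeq2. The 551 differences between labels became 155 with no filter and 155 with no variance trend, and ranged from 245 to 994 with 1 library left out. With a pseudocount of 0.1, 2 genes fell 2-fold or more, against 1. Using the 4 libraries labelled shCHD4 alone gave 3914 calls, of which 2851 were among the 2903, and edgeR gave 2959, of which 2788 were. Rises made up 53.5% of calls and 47.3% with quantile normalization, which moved the median of all genes by less than 0.1. Of the genes named in the text and rerun, none that passed the test in either direction changed direction under these alternatives. CHD4 (-0.059 to 0.00086) and IGFBP4 (-0.031 to 0.021), which did not pass, crossed 0. Some named genes, such as PFKL, PDP1, ARNT, ARNT2 and MKI67, were not rerun. The replicate numbers are shared but nothing says that they pair the libraries. Deviations of replicate 1 correlated at -0.121 between 1% and 20% O2 under the shCHD4 label, across genes. With the replicate block 1525 genes rose, 1270 fell and 536 differed between labels, and with the crossed pairing, chosen after seeing the data, 1522 rose, 1301 fell and 529 differed. Few reads limit the precision of low genes, as CA9 with 5 reads at 20% O2, and 2 libraries a group limit every test.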

Other observations

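Of the 63 genes that rose 2-fold or more, 23 were in none of the gene lists. Examples chosen after their values were seen are FAM83A, linked to EGFR signalling, at 4.68 and 4.55 normalised read counts at 20% O2 and 17.1 and 16.1 at 1% O2 (log2 change 1.74). MALL, a membrane raft protein, went from 3.63 and 3.24 to 11.7 and 10.5 (1.56). RASSF4, a RAS-association domain protein, went from 7.45 and 6.83 to 21.4 and 21.8 (1.53). NOG, noggin, a secreted inhibitor of BMP ligands, went from 17.9 and 16.9 to 39.2 and 40.3 (1.17). In each of the 4 genes both 1% O2 libraries lay above both 20% O2 libraries.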
